A study of Mus musculus with 28 samples.

Results

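Cd80 and Cd86 encode the costimulatory ligands B7-1 and B7-2 of antigen-presenting cells. They were chosen by name, as the only costimulatory ligands on the panel, and make up 2 of its 72 targets. Their levels were followed in mouse monocytes that had entered a healthy or an inflamed small intestine, with or without Trem1, and in bone marrow monocytes.

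T cells need a second signal beside the antigen receptor, and CD80 and CD86 deliver it by binding CD28 on the T cell. The same ligands bind CTLA-4, which restrains the response, so both help to set activation and tolerance. Myeloid cells commonly raise either ligand when microbial or inflammatory signals reach them, and in the gut, monocytes that arrive in inflamed tissue can take on antigen-presenting functions. TREM-1 sits on myeloid cells and strengthens signalling by Toll-like and NOD-like receptors, which reaches NF-kappaB.

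All animals were on the C57BL/6 background. Donor monocytes were wild-type (WT) or Trem1-/-, and the recipients were CCR2-/-, a deletion that leaves few monocytes of their own in blood because exit from the marrow needs CCR2. The intestine of a recipient was either not manipulated (control) or operated on 1 day ahead of the transfer (inflamed). Cells derived from the donor monocytes were sorted from it 1 day after the transfer, 100 per sample. There were 5 WT control, 5 WT inflamed, 5 Trem1-/- control and 7 Trem1-/- inflamed samples, 1 recipient each. Primary monocytes came from the bone marrow of 3 WT and 3 Trem1-/- mice that were not manipulated, were not transferred, and did not carry the recipients' CCR2 deletion per the labels. The sources used here give no age or sex. The Trem1 deletion was in the donor cells alone, as transferred monocytes, and the recipients' own Trem1 genotype was not altered per the labels. Barcodes were counted on a NanoString nCounter after multiplexed pre-amplification of the cDNA, so a count is not a number of RNA molecules. Fewer cells of a type and less RNA per cell cannot be told apart in such samples.

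The total gene count was 720570 to 1625959 per sample. In 14 of the 28 samples the deposited gene counts had all been multiplied by the same number, about 4/3 in 13 samples and 2 in 1 (WT inflamed mouse 5), and this was undone. The spike-in control counts of WT control mice 3 and 4 and WT inflamed mice 3, 4 and 5 carried the same multiplier as their genes. This was undone as well, and the control counts of all other samples had no multiplier. After this division the positive controls of the intestinal samples did not overlap by genotype. Their geometric mean was at most 729 counts in the WT samples and at least 766 in the Trem1-/- samples. The lack of overlap depends on this division. The labels name no run, and any difference in run cannot be told apart from genotype there. The monocyte and macrophage markers on the panel (7 of 9 listed, among them Csf1r, Cd14 and Emr1) were above background in every sample of every group. Of 6 dendritic cell markers, 4 had values, and none of the listed markers of neutrophils, T cells, B cells or epithelium was on the panel.

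The Cd80 probe covered positions 211 to 310 of transcript NM_009855.2 and the Cd86 probe positions 252 to 351 of NM_019388.3. Both genes lie on mouse chromosome 16. The lowest count of either gene in any sample was 2206. Cd80 was at least 63.2 times and Cd86 at least 64.6 times the background limit of its sample, the mean of the negative controls plus 2 SD. Both genes were therefore well measured in every sample, marrow included, and no low-value filter removed either of them. The counts carry no molecular identifiers, so this covers counting error only. The probes differ in capture and amplification, so the level of Cd80 is not set against that of Cd86 here. Only changes of each gene, and changes of their ratio, are compared.

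The promoter of Cd80 is shown because Cd80 was the member that was lower in Trem1-/- than in WT cells of the inflamed intestine, as were several genes of the NF-kappaB pathway. The 250 bases before the transcript start used in the RefSeq promoter table (build GRCm38.p6, chr16:38458683-38458932, plus strand) lie inside the span that RefSeq gives the whole gene, downstream of its first base. They read as follows, with a match to the letters searched for AP-1 (TGANTCA, where N is any base) in capitals.
Cd80 promoter: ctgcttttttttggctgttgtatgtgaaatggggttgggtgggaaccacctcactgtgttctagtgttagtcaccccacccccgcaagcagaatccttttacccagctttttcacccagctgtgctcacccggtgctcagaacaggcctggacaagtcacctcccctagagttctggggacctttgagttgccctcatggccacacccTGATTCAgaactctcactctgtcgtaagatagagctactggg
The motif TGANTCA, searched on both strands, matched 1 time, 42 bases before the start. It occurred in 6.75% of 32851 promoters of the same length. The interferon-stimulated response element (GAAA and GAAA separated by 2 bases, in 2.98% of promoters) and the NF-kappaB consensus (in 7.25%) had 0 matches in this window. A match describes these letters only, and the absence of one says nothing about the factor.

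Levels are housekeeping-normalised counts: Actb, Gapdh and Rpl19 set the scale of each sample through their geometric mean. Cd80 was 11494.5, 9223.78, 20610.9, 7613.24 and 13734.4 in the 5 WT control samples. It was 33539.9, 63637.8, 23186.5, 34432.4 and 49641.8 in the 5 WT inflamed samples. The lowest inflamed sample lay above the highest control sample. In Trem1-/- control cells Cd80 was 10362.5, 15719.6, 10237.3, 11240.0 and 10998.8. In the 7 Trem1-/- inflamed samples the lowest value was 11214.1, the median 12793.2 and the highest 18597.4. Those Trem1-/- groups overlapped, and every Trem1-/- inflamed sample lay below every WT inflamed sample.

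In bone marrow Cd80 was 5547.53, 6158.93 and 2315.8 in WT and 2567.08, 2537.28 and 2584.24 in Trem1-/- monocytes. All 6 marrow samples were below all 22 intestinal samples. Ordered by mean level, Cd80 was 40888 ± 15837 (SD, n = 5) in WT inflamed cells and 13700 ± 2926 (SD, n = 7) in Trem1-/- inflamed cells. WT control cells followed at 12535 ± 5073 (SD, n = 5) and Trem1-/- control cells at 11712 ± 2280 (SD, n = 5). These lower 3 intestinal groups overlapped with one another and differed by less than their spread. WT marrow had 4674 ± 2065 (SD, n = 3) and Trem1-/- marrow 2563 ± 23.8 (SD, n = 3), which also overlapped.

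Cd86 was 9312.16, 6797.61, 17307.8, 13855.0 and 2909.0 in WT control cells and 19733.0, 6040.08, 14001.7, 22527.0 and 12023.7 in WT inflamed cells. In Trem1-/- control cells it was 8854.01, 4385.96, 9653.79, 20775.5 and 18268.1. In the 7 Trem1-/- inflamed samples the lowest value was 11377.8, the median 14572.3 and the highest 17981.2. All 4 intestinal groups overlapped. In bone marrow Cd86 was 1395.1, 4633.29 and 3986.89 in WT and 1932.19, 3913.03 and 3868.15 in Trem1-/- monocytes. The marrow samples were low, though WT control mouse 5, at 2909.0, lay among them.

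Ordered by mean level, Cd86 was 15069 ± 2424 (SD, n = 7) in Trem1-/- inflamed, 14865 ± 6502 (SD, n = 5) in WT inflamed, 12387 ± 6872 (SD, n = 5) in Trem1-/- control and 10036 ± 5685 (SD, n = 5) in WT control cells. It was 3338 ± 1714 (SD, n = 3) in WT and 3238 ± 1131 (SD, n = 3) in Trem1-/- marrow. Every neighbouring pair in this order overlapped. Within groups Cd86 spread more widely than Cd80 among control cells: the coefficient of variation was 56.6% against 40.5% in WT and 55.5% against 19.5% in Trem1-/- control cells.

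**Figure D1:**
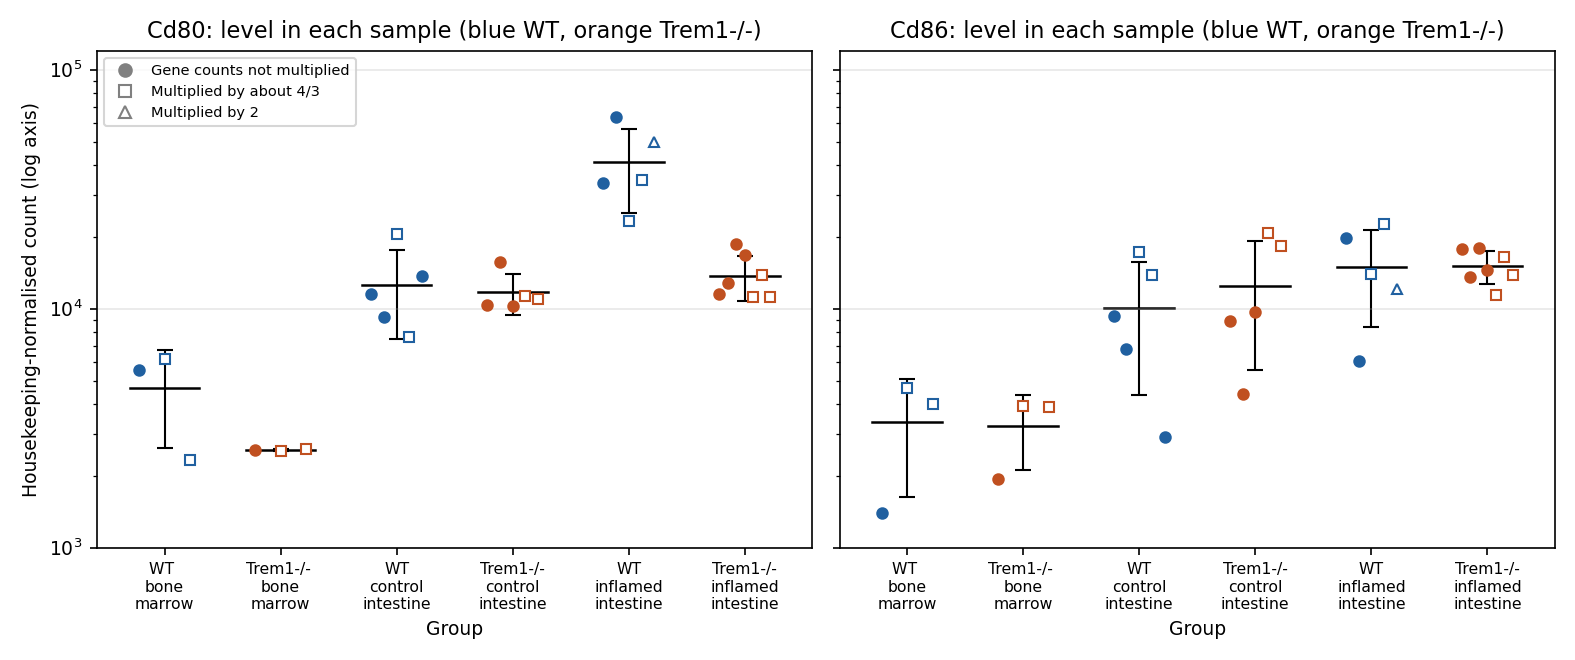
Housekeeping-normalised count of Cd80 (left) and Cd86 (right) in each sample on a log axis, by group; lines are means and bars 1 SD, and symbols show how the deposited gene counts had been multiplied. The 5 WT inflamed samples have Cd80 from 23186.5 to 63637.8, above every other sample, whereas the intestinal groups overlap for Cd86.

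The first comparison asked how intestinal inflammation changed WT cells. Cd80 rose 3.26-fold, a log2 fold change of 1.71 (SE 0.28, 95% confidence interval 1.11 to 2.30, adjusted p = 3.76e-05, edgeR quasi-likelihood test). Cd86 had a log2 fold change of 0.57 (SE 0.43, interval -0.32 to 1.45, adjusted p = 0.285) and did not pass. So of both ligands 1 passed, and 25.5% of the 55 genes tested rose. Of all genes, 21.8% had every inflamed sample above every control sample, and Cd80 was among them. Among samples whose counts had been multiplied by about 4/3, 2 in each group, the Cd80 change was 1.03 with an adjusted p of 0.0575, and among samples without a multiplier it was 2.08 with an adjusted p of 0.000468.

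The same comparison in cells of Trem1-/- donors gave no call for either ligand. The Cd80 log2 fold change was 0.23 (SE 0.26, interval -0.31 to 0.76, adjusted p = 0.550). For Cd86 it was 0.28 (SE 0.40, interval -0.54 to 1.11, adjusted p = 0.634). In this comparison 49.1% of all genes passed, in either direction, so 0 of the 2 ligands stood among many genes that did. For Cd80 the interval ends below a doubling on the log2 scale, and below the lower bound in WT cells. With positive-control scaling, or in the authors' normalised values, Cd80 did pass, at 0.82 (adjusted p = 0.0162) and 1.10 (adjusted p = 0.0174). The median of all genes was 0.55 under that scaling and 1.01 in the authors' values.

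The genotype by inflammation interaction tested if WT and Trem1-/- cells responded differently. For Cd80 the response of Trem1-/- cells was smaller by 1.48 on the log2 scale, an interaction of -1.48 (SE 0.38, interval -2.26 to -0.69, adjusted p = 0.0213). It was 1 of 2 genes that passed, with 1.82% of all genes lower and 1.82% higher. The other gene was Il10, which encodes an anti-inflammatory cytokine and moved the opposite way, with an interaction of 1.74 (adjusted p = 0.0130). Cd86 had an interaction of -0.28 (SE 0.58, interval -1.49 to 0.92, adjusted p = 0.824). That interval includes 0 and the Cd80 estimate of -1.48, so the data do not show that Cd86 responded alike in both genotypes.

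The size of the Cd80 interaction was negative under every alternative tried, from -1.78 to -0.91, but it passed in only 29 of 38. Of the 38, 22 left out 1 mouse each, and 4 of these did not pass. The others changed the processing or the samples used. Among them, the fit without the background filter kept the same genes and so could not differ. The adjusted p was 0.0604 with trimmed-mean (TMM) scaling, 0.0970 with positive-control scaling, 0.268 in the authors' normalised values and 0.399 among samples multiplied by about 4/3. Without WT inflamed mouse 2, the sample with the highest Cd80, the interaction was -1.26 (adjusted p = 0.0619). Leaving out WT control mouse 2, WT inflamed mouse 5 or Trem1-/- control mouse 2 gave adjusted p-values of 0.0547, 0.0513 and 0.0570. A fit that blocked on multiplier class gave -1.38 (adjusted p = 0.0448).

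**Figure D2:**
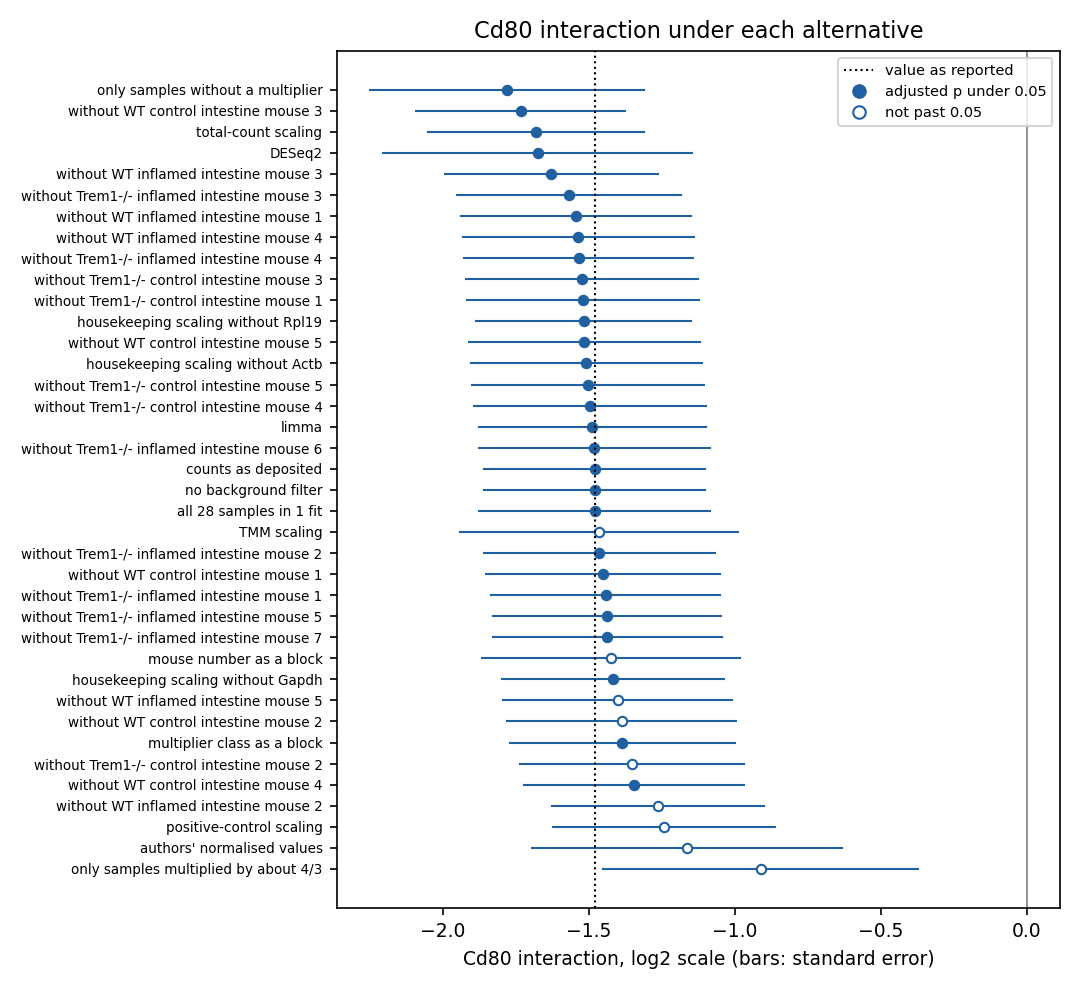
Genotype by inflammation interaction of Cd80 on the log2 scale (x axis) under each alternative and with each mouse left out (y axis); bars are standard errors, filled points passed an adjusted p of 0.05, and the dotted line is the reported -1.48. All points lie below 0, and 9 of 38 do not pass.

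Between genotypes, the cells of the inflamed intestine differed in Cd80. It was 2.98-fold lower in Trem1-/- cells, a log2 fold change of -1.58 (SE 0.26, interval -2.11 to -1.05, adjusted p = 0.000101). This call held under all 28 alternatives, with values from -2.34 to -1.25, and without any 1 mouse the adjusted p was at most 0.000518. Cd86 had a log2 fold change of 0.020 (SE 0.39, interval -0.80 to 0.84, adjusted p = 0.978), and its sign turned with the scaling. Of all genes 23.6% were lower in Trem1-/- cells, and 12.7% were lower with no overlap, Cd80 among both. The median of all genes was -0.28, and relative to that median Cd80 lay at -1.30 as reported and between -1.36 and -0.99 under the other settings. The summed level of the monocyte and macrophage markers was also lower, from 218173 to 298396 in WT inflamed and from 153391 to 183134 in Trem1-/- inflamed samples. In control cells it was also lower in Trem1-/- samples, 185345 to 247261 against 251827 to 325694 in WT, where Cd80 did not pass. The members of that sum did not all go one way: in inflamed intestine the mean of Spi1 was 71665 in WT and 27310 in Trem1-/- cells and that of Cd14 122428 and 90064, while that of Ccr2 was 25104 and 40154. In the same order, Csf1r had 16856 and 6718, Cx3cr1 137 and 87.2, and Emr1 993 and 1087. Ly6c1 had 21070 and 660, with WT samples from 737 to 57870 and Trem1-/- samples from 162 to 1748. The part of this sum in the Cd80 difference was not tested.

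In control intestine neither ligand passed between genotypes. Cd80 had a log2 fold change of -0.098 (SE 0.28, interval -0.67 to 0.48, adjusted p = 0.851) and Cd86 of 0.30 (SE 0.43, interval -0.58 to 1.19, adjusted p = 0.741), where 3.64% of all genes passed. Positive-control scaling gave -1.10 for Cd80 (adjusted p = 0.00317). Under that scaling the median of all genes was -1.24, as the controls themselves differed by genotype.

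**Figure D3:**
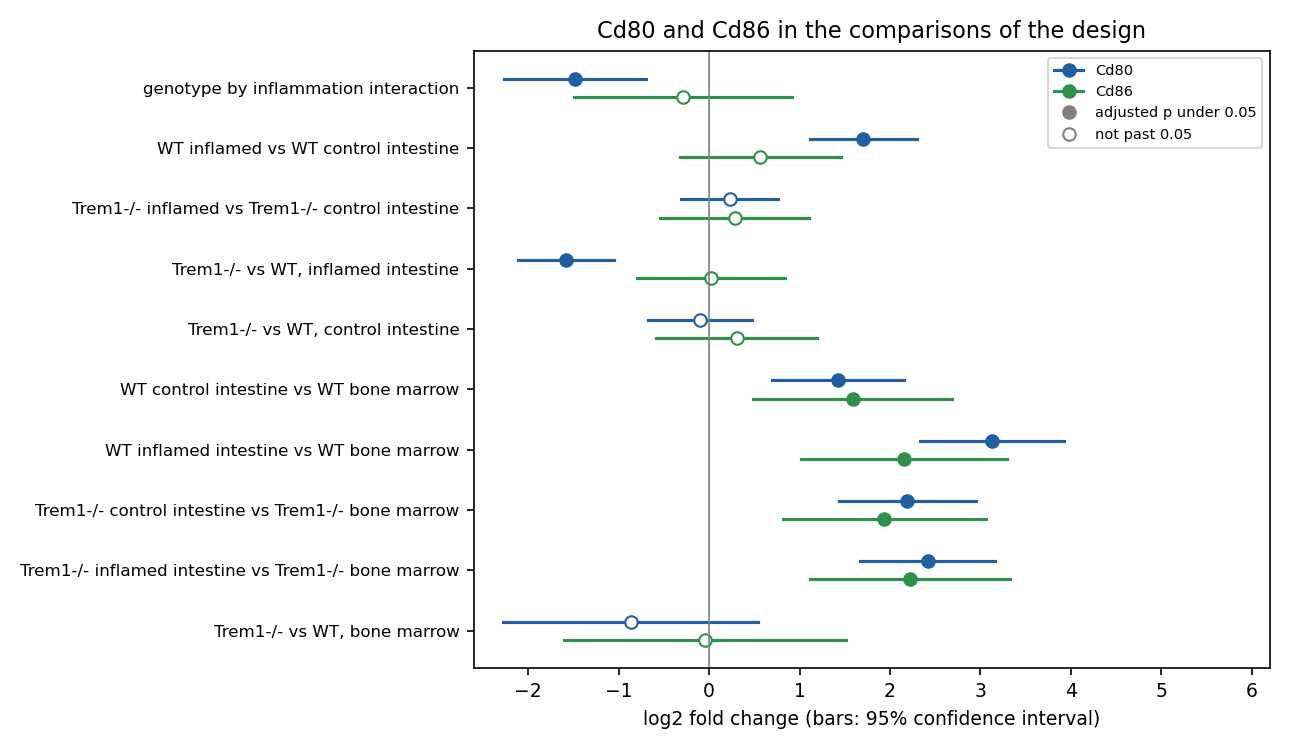
Log2 fold change of Cd80 (blue) and Cd86 (green) with the 95% confidence interval in the 10 comparisons; filled points passed an adjusted p of 0.05. Cd80 passes in the interaction, in WT inflammation and between genotypes in inflamed intestine, where Cd86 does not, and both pass in the 4 comparisons of intestine with marrow.

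Compared with marrow monocytes, both ligands were higher in cells of the intestine, in both genotypes and with or without inflammation. These comparisons share samples with the ones above and with each other, since each marrow group serves 2 of them. In WT cells Cd80 was 2.68-fold higher in control intestine (log2 1.42, SE 0.35, adjusted p = 0.00358) and 8.75-fold higher in inflamed intestine (log2 3.13, SE 0.39, adjusted p = 1.18e-07). In Trem1-/- cells it was 4.57-fold higher in control (log2 2.19, SE 0.37, adjusted p = 2.73e-05) and 5.35-fold higher in inflamed intestine (log2 2.42, SE 0.36, adjusted p = 2.51e-06). The Cd80 groups did not overlap in any of these comparisons. Of all genes, 21.8% lay above marrow without overlap in WT control, 29.1% in WT inflamed, 34.5% in Trem1-/- control and 40% in Trem1-/- inflamed cells. The median log2 fold change of all genes was 0.61, 0.94, 0.51 and 0.31 in the same order. Relative to that median, Cd80 in WT control cells lay between -0.26 and 1.31 over the settings, mice left out aside, and Cd86 between 0.83 and 1.43. In the other comparisons with marrow both ligands lay above the median under each of these settings.

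Cd86 was 3.01-fold higher than marrow in WT control cells (log2 1.59, SE 0.54, adjusted p = 0.0255) and 4.45-fold higher in WT inflamed cells (log2 2.15, SE 0.55, adjusted p = 0.00160). In Trem1-/- cells it was 3.83-fold higher in control (log2 1.94, SE 0.55, adjusted p = 0.00604) and 4.65-fold higher in inflamed intestine (log2 2.22, SE 0.54, adjusted p = 0.000918). The groups overlapped for WT control cells, of which 4 of 5 lay above all marrow samples, and did not overlap in the other comparisons. The share of all genes higher than marrow was 30.9% in WT control, 36.4% in WT inflamed, 30.9% in Trem1-/- control and 38.2% in Trem1-/- inflamed cells, so many genes were higher along with the ligands.

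The calls of control cells against marrow depended on the setting. With TMM scaling those of WT cells were 0.74 for Cd80 (adjusted p = 0.223) and 1.05 for Cd86 (adjusted p = 0.0509), and without WT marrow mouse 1 the Cd86 value was 1.22 (adjusted p = 0.145). The WT Cd86 call was also lost without WT control mouse 3 or WT marrow mouse 3. The housekeeping genes of WT marrow mouse 1 stood apart. Its normalised Rpl19 was 8101, against 3270 and 2738 in WT marrow mice 2 and 3. Its normalised Actb was 91167, against 166512 and 157706. In Trem1-/- control cells the authors' normalised values gave 0.54 for Cd80 (adjusted p = 0.308) and 0.17 for Cd86 (adjusted p = 0.842). Cd86 also lost its call there with positive-control scaling (1.11, adjusted p = 0.197) and among samples without a multiplier (1.98, adjusted p = 0.110). Marrow cells had not passed through transfer or the sort from intestine, and no source used here gives their number per sample, so tissue and handling cannot be told apart.

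Within bone marrow neither ligand passed between genotypes. Cd80 had a log2 fold change of -0.87 (SE 0.63, interval -2.28 to 0.54, adjusted p = 0.843) and Cd86 of -0.044 (SE 0.69, interval -1.60 to 1.52, adjusted p = 0.968). In this comparison of 3 against 3 mice, 0 of 54 genes passed with edgeR and with limma, 2 passed with DESeq2, and 3 had an unadjusted p under 0.05. The WT samples spread widely, with 1 WT mouse at 2315.8, below all 3 Trem1-/- mice.

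The ratio of both ligands in a sample does not depend on the housekeeping genes. Its log2 value was 0.77, 3.40, 0.73, 0.61 and 2.05 in the WT inflamed samples. In the 7 Trem1-/- inflamed samples it ran from -0.63 to 0.20 with a median of -0.081. All 5 WT inflamed samples lay above all 7 Trem1-/- inflamed samples. Cd80 alone also separated these groups, as 1 of the 12.7% of all genes that were lower in Trem1-/- cells with no overlap. The ratio holds the same Cd80 counts, and the share among ratios of other genes was not computed. The log2 ratio was 0.30, 0.44, 0.25, -0.86 and 2.24 in WT control cells and 0.23, 1.84, 0.085, -0.89 and -0.73 in Trem1-/- control cells. In marrow it was 1.99, 0.41 and -0.78 in WT and 0.41, -0.63 and -0.58 in Trem1-/- monocytes. The control and marrow groups overlapped between genotypes. In every group but Trem1-/- inflamed the highest ratio belonged to the sample with the lowest Cd86. That Cd86 level was 2909.0 in WT control, 6040.08 in WT inflamed, 4385.96 in Trem1-/- control, 1395.1 in WT marrow and 1932.19 in Trem1-/- marrow. The group means were 1.51 ± 1.21 (SD, n = 5) in WT inflamed and -0.15 ± 0.27 (SD, n = 7) in Trem1-/- inflamed cells.

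**Figure D4:**
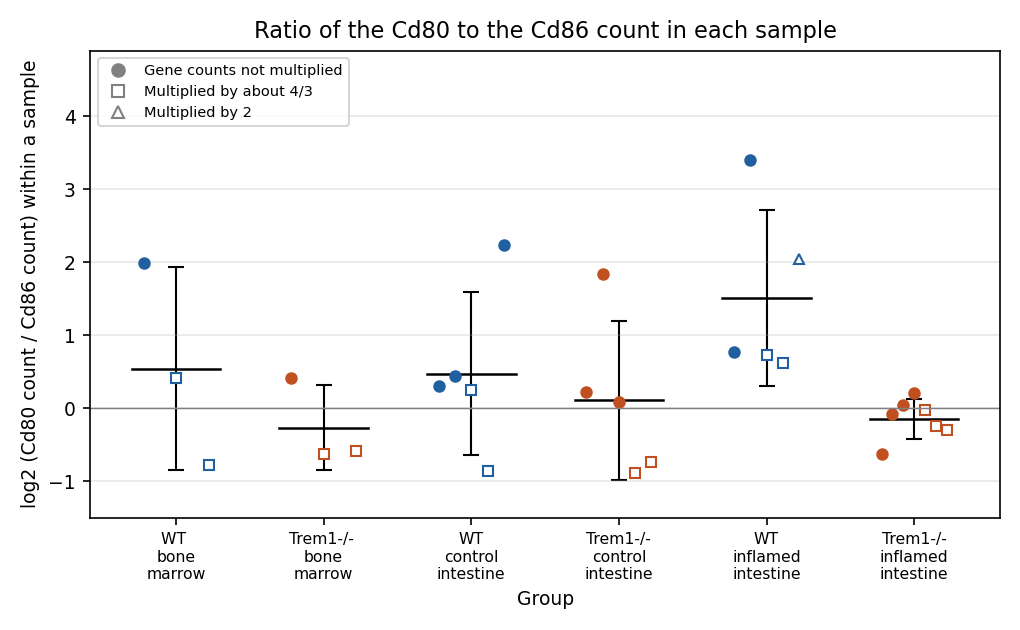
Log2 ratio of Cd80 to Cd86 in each sample by group, with the mean and 1 SD. The 5 WT inflamed samples, from 0.61 to 3.40, lie above the 7 Trem1-/- inflamed samples, of which the highest is 0.20.

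The multiplier of a sample went with its Cd86 level in part of the groups. Cd86 was higher in every multiplied sample than in every unmultiplied sample in 4 of 6 groups, both control and both marrow groups. These groups were small, with 2 multiplied against 3 unmultiplied samples in each control group and 2 against 1 in each marrow group. The share of all genes separated in this way was not computed. The classes overlapped in both inflamed groups. The mean of samples multiplied by about 4/3 was 18264 against 12887 without a multiplier in WT inflamed cells, and 13877 against 15963 in Trem1-/- inflamed cells. In WT control cells the multiplied samples had 13855.0 and 17307.8, against 2909.0 to 9312.16 in the others. In Trem1-/- control cells they had 18268.1 and 20775.5, against 4385.96 to 9653.79. Cd80 overlapped between the classes in 6 of 6 groups. With group as a term, samples multiplied by about 4/3 had Cd86 higher by 0.81 on the log2 scale over 27 samples (SE 0.23, adjusted p = 0.00777) and by 0.68 over the 21 intestinal samples (SE 0.27, adjusted p = 0.0597). Cd80 had -0.20 in both fits, with adjusted p-values of 0.382 and 0.417. In these fits 41.8% and 27.3% of all genes passed, so this was not a feature of Cd86 alone. Within the classes the Cd86 change with inflammation in Trem1-/- cells was 1.06 (adjusted p = 0.101) without a multiplier and -0.49 (adjusted p = 0.124) with one. In WT cells it was 1.02 (adjusted p = 0.162) and 0.23 (adjusted p = 0.520). None of these passed. No source used here says why counts were multiplied.

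The housekeeping genes had different shifts with inflammation, Actb being lower and Rpl19 higher in the inflamed groups. On the normalised scale the mean of Actb was 169217 and 125029 in WT control and inflamed and 163095 and 113847 in Trem1-/- control and inflamed cells. That of Rpl19 was 2826 and 3929 in WT control and inflamed and 2634 and 3517 in Trem1-/- control and inflamed cells. Between genotypes in inflamed intestine Gapdh did not overlap, with 89252 to 98396 in WT and 107842 to 117543 in Trem1-/- samples. Actb and Rpl19 overlapped there. Cd80 was also set against each housekeeping gene in turn. Over Gapdh it was 13.1% in WT control, 44.2% in WT inflamed, 10.98% in Trem1-/- control and 12.1% in Trem1-/- inflamed cells. Over Actb the means were 7.32%, 32.7%, 7.21% and 12.04% in the same order, and over Rpl19 458%, 1047%, 456% and 390%. The WT inflamed mean was the highest against all 3, while the Trem1-/- inflamed mean lay above the Trem1-/- control mean over Gapdh and Actb and below it over Rpl19.

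The genes with the profile most like each ligand were found by the root mean square difference of log2 group means, each gene centred on its own mean over the 6 groups. Of the 54 other genes, Nod2, a receptor for bacterial cell wall fragments, was nearest to Cd80 at 0.41, followed by Cd86 at 0.59 and Cd14, the lipopolysaccharide co-receptor, at 0.65. Nearest to Cd86 were Nod2 at 0.55, Cd80 at 0.59 and Fcgr1, the high-affinity IgG receptor, at 0.59. These are descriptions over 6 group means. Nod2 was 6502 ± 3458 (SD, n = 5) in WT inflamed and 2492 ± 408 (SD, n = 7) in Trem1-/- inflamed cells, lower by 1.38 on the log2 scale (log2 fold change -1.38, adjusted p = 0.00277), and 3783 ± 1628 (SD, n = 5) in WT control cells. Its change with inflammation in WT cells did not pass with edgeR (log2 0.78, adjusted p = 0.0786) and did with DESeq2 (0.72, adjusted p = 0.0186) and in the authors' normalised values (1.30, adjusted p = 0.0417). It also passed without Rpl19 in the scaling (1.03) and when mouse 2 of WT control (1.01) or mouse 2 (0.94) or 3 (0.93) of WT inflamed was left out. Its interaction did not pass with edgeR (-0.87, adjusted p = 0.379). Cd14 rose with inflammation in both genotypes, by 1.00 (adjusted p = 0.00129) in WT and 0.62 (adjusted p = 0.0225) in Trem1-/- cells, where 21.8% of all genes rose. The Trem1-/- call was lost with TMM scaling (0.44, adjusted p = 0.196), DESeq2 (0.40, adjusted p = 0.230), total-count scaling (0.24, adjusted p = 0.406), without Actb (0.36, adjusted p = 0.237), with all 28 samples in 1 fit (adjusted p = 0.0541) and without Trem1-/- control mouse 5 (0.52, adjusted p = 0.0708). The WT call was lost within samples multiplied by about 4/3 (0.47, adjusted p = 0.161). Fcgr1 passed in none of the 4 intestinal comparisons or the interaction.

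Genes around the ligands were read by list. The list of pattern recognition and NF-kappaB genes held 10 measured members of 11. In inflamed intestine 7 of the 10 were lower in Trem1-/- than in WT cells and 0 were higher, against 23.6% lower among all genes. The 7 were Nfkb1 (-1.39) and Nfkb2 (-1.22), which encode NF-kappaB subunits, Nod2 (-1.38), Tlr4 (-1.25) and Tlr2 (-0.99), which are receptors for bacterial products, and Traf6 (-1.17) and Irf5 (-0.98), which act downstream of them. Tlr2 was near background, with mean normalised counts of 66.8 in Trem1-/- and 132 in WT inflamed cells. The mean background limits of these groups were 45.5 and 33.3 counts. The median of the list was -1.08, beside -0.28 for all genes. Between 4 and 10 of the 10 were called lower under the alternatives. In control intestine 1 of the 10 was lower in Trem1-/- cells, Nfkb2 (-1.10, edgeR adjusted p = 0.0206), where 3.64% of all genes passed. The list median was -0.69 there, beside -0.33 for all genes and -0.098 for Cd80. So the list also lay below the median of all genes without inflammation. The interaction passed in 0 of the 10, with a list median of -0.39 beside -0.097 for all genes, where Cd80 passed. With inflammation in WT cells 3 of the 10 rose (Cd14 1.00, Tlr4 1.11 and Traf6 0.79), 1 fell (Card9 -0.95, an adaptor of fungal sensing) and 6 did not pass, near the 25.5% and 21.8% of all genes that rose and fell.

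The list of antigen presentation and dendritic cell maturation genes had 5 measured members of 9. In WT cells, where Cd80 rose with inflammation, 0 of these 5 rose and 3 fell. These were H2-Ab1 (-2.08), which encodes a chain of MHC class II, Itgax (-2.38), which encodes CD11c, and the transcription factor Irf4 (-1.07). In Trem1-/- cells 4 of 5 fell, H2-Ab1, Itgax, Irf4 and Ccr7 (-1.46), the receptor that guides cells to lymph nodes. Among all genes 21.8% fell in WT and 27.3% in Trem1-/- cells. Under positive-control scaling 0 of 5 passed in WT cells. Between genotypes in inflamed intestine 0 of 5 passed with edgeR, where 9.09% of all genes were higher and 23.6% lower. In the interaction 0 of 5 passed, where only 2 of all 55 genes did. The receptors CD28 and CTLA-4 and the ligands of the same family fixed beside them (Cd274, Pdcd1lg2 and Icosl) were not on the panel (0 of 5).

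The dendritic cell markers with values share 4 genes with that list (Itgax, Ccr7, H2-Ab1 and Irf4), while the defining markers Flt3 and Zbtb46 were blank in all samples. Their summed level was 101213 to 165233 in WT control and 5189 to 71354 in WT inflamed samples, and 64810 to 148002 in Trem1-/- control and 11151 to 39020 in Trem1-/- inflamed samples. In marrow it was 3299 to 21216 in WT and 1761 to 5516 in Trem1-/- samples. In both genotypes every inflamed sample was thus below every control sample, while Cd80 rose in WT cells, and the inflamed groups overlapped between genotypes. Most of this sum was H2-Ab1, with a mean of 115620 in WT control and 27333 in WT inflamed cells. Ccr7, with 2293 and 2185, had no call in WT cells. Its part in the Cd80 values was not tested.

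Il10, with 1 receptor gene (Il10ra) the measured part of a list of 4 genes of the IL-10 axis, was the other gene past the interaction test. It was 14943 ± 3641 (SD, n = 5) in WT inflamed and 43277 ± 9625 (SD, n = 7) in Trem1-/- inflamed cells, higher by 1.53 on the log2 scale (adjusted p = 0.000228), as were 9.09% of all genes. In the control groups it was 3588 ± 1535 (SD, n = 5) in WT and 3108 ± 609 (SD, n = 5) in Trem1-/- cells. Il10ra did not pass between genotypes in inflamed intestine.

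**Figure D5:**
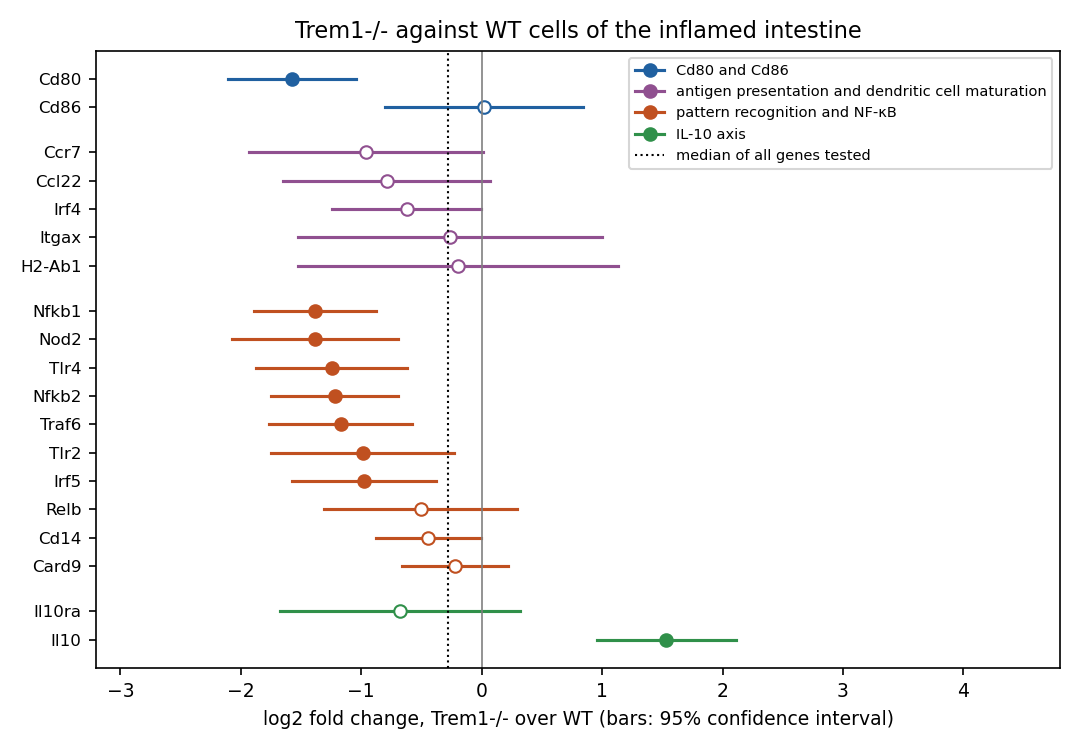
Log2 fold change of Trem1-/- over WT cells of the inflamed intestine for both ligands and the measured genes of 3 lists, with 95% confidence intervals; filled points passed an adjusted p of 0.05 and the dotted line is the median of all genes, -0.28. Cd80 lies with 7 lower genes of the pattern recognition list, Cd86 lies near 0, and Il10 is the only gene shown that was called higher.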

How the data were processed

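Raw barcode counts of 28 samples were used as the authors deposited them, beside their normalised values, a score without a stated unit. The deposited counts of 14 samples were whole numbers times a multiplier (tolerance 0.0001), which was divided out. As deposited, those that were no longer whole had the form of expected counts, though no source used here calls them estimates. The authors' table served as an alternative. The median ratio of its values to the raw values was 0.407 to 3.12 per column. The sources used here do not name the counting software.

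Counts scaled by Actb, Gapdh and Rpl19 were tested with edgeR 4.0.16 (quasi-likelihood, two-sided) in R 4.3.3, Benjamini-Hochberg adjusted over 55 genes (54 in marrow) above background in at least 3 samples, threshold 0.05. Intestinal groups shared a fit of 22 samples, comparisons with marrow used 28 and the marrow comparison 6. Alternatives used limma 3.58.1, DESeq2 1.42.0, other scalings, blocks, multiplier classes and mice left out. Of 72 targets, 69 were matched to RefSeq. Fold changes, on the log2 scale unless written as folds, come from the deposited counts after that division. Tables and figures used Python 3.11.15. The design had planned to test the counts as deposited; these became an alternative once the multipliers were seen. The members and lists were chosen with earlier results of these data known. Named genes were both ligands, the 3 genes most like each, and list members past the threshold in the interaction or between genotypes in inflamed intestine; list members that passed within a genotype are named beside their counts, chosen after their values were seen. Counts of samples of a group differed by a chi-square per degree of freedom of at least 275.7, so none was a copy. The labels name separate mice. Same-numbered WT and Trem1-/- marrow samples deviated together (correlations of 0.79, 0.20 and 0.46), while in no other comparison made were all pairs over 0.1. In both genotypes marrow mouse 1 was unmultiplied, and mice 2 and 3 were multiplied by about 4/3. Pairing by number and a shared multiplier class therefore cannot be told apart in marrow.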

Additional observations from a re-analysis of the deposited data

Results flagged for a closer look

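Cd80 in Trem1-/- control mouse 2 was 15719.6 normalised counts, apart from the other 4 samples of its group, which lay between 10237.3 and 11240.0. The gap made up 0.817 of the group's range, above Dixon's limit of 0.71 for 5 samples. Of 12 sets of values examined 1 stood out in this way, and chance gives about 1 in 20. Without this mouse the Cd80 interaction was -1.35 (edgeR adjusted p = 0.0570), so the interaction was no longer called.

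The response of Cd80 to inflammation differed between genotypes, with an interaction of -1.48 (edgeR adjusted p = 0.0213). Cd80 was higher in inflamed than in control intestine without overlap in WT cells, and the groups overlapped in Trem1-/- cells.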

How the results depend on the processing

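Over 20 results and 522 alternatives, 456 kept direction and side of the threshold, 27 lost a call, 3 gained one and 36 changed sign, and 7 results kept both under every alternative. Values are log2 fold changes with edgeR's adjusted p unless a tool is named. The multiplier class term was added after seeing the data. The cause was not tested for any of these changes.

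The Cd80 interaction lost its call with TMM scaling (-1.47), positive-control scaling (-1.24), the authors' normalised values (-1.16), the replicate block (-1.42, adjusted p = 0.101) and within samples multiplied by about 4/3 (-0.91), and ran from -1.73 to -1.26 with each mouse left out. Among the latter samples Cd80 in WT inflamed against control fell short at 1.03. In Trem1-/- cells Cd80 with inflammation turned to -0.010 with DESeq2, -0.15 with total-count scaling and -0.034 without Actb, and passed at 0.82 with positive-control scaling and 1.10 in the authors' values. Cd80 between genotypes in control intestine turned to 0.12 with TMM, 0.41 with DESeq2, 0.20 with total counts, 0.076 in unmultiplied samples and 0.16 without WT control mouse 3 (range -0.23 to 0.16), and passed at -1.10 with positive-control scaling.

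The Cd86 interaction turned to 0.13 in the authors' values and 0.041 in unmultiplied samples. Cd86 with inflammation in Trem1-/- cells turned to -0.049 with total counts and -0.49 in multiplied samples. Cd86 between genotypes in inflamed intestine turned to -0.87 with positive-control scaling, -0.049 without Actb, -0.058 without Rpl19, -0.20 in the authors' values, -0.40 in multiplied samples, and ran from -0.18 to 0.22 with each mouse left out. In control intestine it turned to -0.59 with positive-control scaling and -0.33 in the authors' values. In marrow it turned to 0.14 with TMM, 0.26 with DESeq2, 0.32 with total counts, 0.0065 without Gapdh, 0.061 with limma, 0.41 in the authors' values, 0.060 with the replicate block and 0.057 with the class block, and ran from -0.41 to 0.27.

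WT control against marrow lost the Cd80 call with TMM (0.74), DESeq2 (0.72), positive-control scaling (0.91), the authors' values (0.84) and in unmultiplied samples (1.05). The Cd86 call was lost with TMM (1.05), positive-control scaling (1.56), the authors' values (0.91), the replicate block (1.39, adjusted p = 0.0648) and in unmultiplied samples (2.18), with a range of 1.22 to 1.90 over mice left out. Trem1-/- control against marrow lost Cd80 in the authors' values (0.54), and Cd86 with positive-control scaling (1.11), in the authors' values (0.17) and in unmultiplied samples (1.98). The replicate block changed no other call. Over 57 same-numbered pairs of samples the correlation ran from -0.66 to 0.79 with a median of 0.039. All 3 pairs were over 0.1 between the marrow groups, where the replicate block gave -0.75 for Cd80 (adjusted p = 0.719), and not in the other comparisons, where the numbers are not taken to pair the samples. Same-numbered marrow samples also shared their multiplier class.

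The genes called ranged from 0 to 16 for the interaction (2 as reported), 0 to 29 between genotypes in control intestine (2), 17 to 32 for WT inflammation (26), 13 to 29 between genotypes in inflamed intestine (18), 8 to 23 for WT control (19) and 12 to 28 for Trem1-/- control against marrow (19), and 0 to 2 in marrow (0). With each mouse left out they were 1 to 4, 1 to 6, 24 to 27, 14 to 19, 12 to 24 (12 without WT marrow mouse 1 or 3), 16 to 20 and 0 to 2 in the same order. Scaling moved the median of all genes between genotypes in inflamed intestine by -0.93 (positive controls) to 0.37 (DESeq2). The marrow comparison within unmultiplied samples, 1 against 1, could not be fitted. Both ligands were at least 63.2 times the background limit. Mouse differences, pre-amplification and run were not separated in the spread between samples.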
